A study of Homo sapiens with 3 samples.

Results

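The machinery that carries a cell from G1 into S phase was examined in HCT116 cells, a human colorectal carcinoma line, after knockdown of PRMT1, a methyltransferase that places asymmetric dimethyl marks on arginine. The gene set held 36 genes of the 41749 gene names on the array, chosen by name as the G1/S cyclins and their kinases, the CDK inhibitors, the RB family, the E2F and DP factors, subunits of the MuvB core, and SKP2 with the CKS proteins. The 3 RNA samples were hybridised in the Cy3 channel, 1 array for the negative control (NC) and 1 array for each PRMT1 knockdown, labelled PRMT1-KD1 and PRMT1-KD2 and written KD1 and KD2 below. All 3 came from HCT116 cells grown in McCoy's 5A medium with serum. The labels describe small interfering RNA (siRNA) against PRMT1, delivered by lipid transfection, but do not say which siRNA gave which knockdown or how long after transfection the RNA was taken. The study's text elsewhere speaks of short hairpin RNA, and this was not settled. Its methods name controls NC1 and NC2, while the labels used here hold a single NC.

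In G1, the D-type cyclins activate CDK4 and CDK6, which begin to phosphorylate RB1 and its relatives RBL1 and RBL2. These pocket proteins otherwise hold E2F factors, which bind DNA as dimers with a DP partner and switch on genes for DNA replication. Cyclin E with CDK2 completes the phosphorylation, the CDK inhibitors oppose it, and the ubiquitin ligase subunit SKP2, with CKS1B, removes the inhibitor CDKN1B. In resting cells, RBL2, E2F4 or E2F5, a DP protein and the MuvB core form the DREAM complex, which represses cell cycle genes. In colorectal carcinoma, the G1/S switch is commonly pushed towards division by growth factor and Wnt signalling through CCND1 and MYC.

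Several of these genes are themselves E2F targets, so their promoters are shown before their values. RefSeq promoter windows, from 250 bases before to 50 bases after a gene's start, were at hand for 29 of the 36 genes. An E2F motif was searched on both strands as TTTCCCGC, TTTCGCGC, TTTGCCGC or TTTGGCGC. It was present for 7 genes (CDC25A, E2F1, E2F2, E2F3, LIN52, RBL1 and TFDP1). Some genes have several windows, and the motif lay in 7 of the 43 windows of the 29 genes. Of all 35116 promoter windows, 3.31% held it. The 130 bases before the start are printed for the activator E2Fs and for CDC25A, because these genes differ among themselves in how they changed. Capitals mark the motif. The windows are chr20:33686386-33686515 for E2F1, chr1:23531234-23531363 for E2F2 and chr3:48188418-48188547 for CDC25A, all on the minus strand, and chr6:20401749-20401878 on the plus strand for E2F3 (build GRCh38.p14, each written 5′ to 3′ towards the gene).
E2F1: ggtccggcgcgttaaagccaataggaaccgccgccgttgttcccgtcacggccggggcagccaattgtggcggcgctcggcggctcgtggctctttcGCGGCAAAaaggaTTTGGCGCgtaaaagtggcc
E2F2: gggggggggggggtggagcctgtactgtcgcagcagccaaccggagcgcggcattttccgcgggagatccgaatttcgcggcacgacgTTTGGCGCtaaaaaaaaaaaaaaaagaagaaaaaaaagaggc
E2F3: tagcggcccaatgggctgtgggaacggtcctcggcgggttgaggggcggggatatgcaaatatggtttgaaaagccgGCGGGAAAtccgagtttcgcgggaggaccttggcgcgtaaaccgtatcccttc
CDC25A: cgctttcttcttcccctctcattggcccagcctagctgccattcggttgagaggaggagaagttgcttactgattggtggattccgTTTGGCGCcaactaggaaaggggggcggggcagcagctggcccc

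Genes with the motif were found on both sides of NC. Of the 7 genes, E2F2 was lower than NC by at least 1.5-fold in KD1 and E2F3 was higher, while CDC25A and E2F3 were higher in KD2. The remaining values lay within 1.5-fold. On the log2 scale, the 7 changes ran from -0.92 to 0.74 in KD1 and from -0.39 to 0.78 in KD2. A second motif, the CHR element TTTGAA that the MuvB subunit LIN54 binds, was present for 8 genes (CKS1B, CKS2, E2F3, LIN37, LIN54, LIN9, RBL2 and TFDP2). It lay in 10 of the 43 windows of the set and in 15.2% of all windows. These 8 genes ran from -0.82 to 0.99 in KD1, with 6 below 0 and 2 above. In KD2 they ran from -0.55 to 0.69, with 4 below and 4 above. The genes above 0 in KD1 were E2F3 and LIN9, and the other probe of each lay below NC there, at -0.36 and -0.11. These matches describe the letters in a window and not binding.

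PRMT1 itself checked the labels. Its level, like every level below, is the log2 intensity of the gene's brightest probe minus the array's 75th percentile, and was 6.03 in NC, 2.75 in KD1 and 1.48 in KD2. The probe signal was thus 10.3% of the NC value in KD1 and 4.26% in KD2. Between 40.7% and 42.3% of probes were well above background on the 3 arrays, and no spot was saturated. The KD1 array had 141 non-uniform spots, against 6 on NC and 5 on KD2. In KD1, the median change of probes above background went from 0.20 for probes with at most 35% GC to -0.30 for probes with over 50% GC, and in KD2 from 0.07 to -0.15. Of 8 colorectal epithelial markers, 6 were well above background, while CEACAM5 and VIL1 were not on any array. Of the markers of other cells, COL1A1, CD14, CDH5 and VWF gave signal, and PTPRC did so in KD2.

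With 1 array per group no test between groups was possible, and a change was called where it reached 1.5-fold, the fold in the study's methods (0.58 on the log2 scale). In KD1, 5 of 35 members were lower than NC, where 14.0% of all 19231 genes counted were lower, and 4 were higher, where 12.4% of all genes were higher. In KD2, 3 of 35 members were lower, against 10.6% of 19421 genes, and 5 were higher, against 9.68%. The shares among the members, 14.3% lower and 11.4% higher in KD1 and 8.57% lower and 14.3% higher in KD2, lay near those of all genes. Their median change was -0.11 in KD1 and -0.02 in KD2, beside -0.07 and -0.05 over all genes. Counts this near the background are no result about the set, and what follows describes single genes. The gene not counted was CCND2, which was not well above background on any array.

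KD1 and KD2 share the NC array, so a deviation of that array enters both changes of a gene. Between the knockdowns, where NC plays no part, 3 of 35 members were lower in KD1 by 1.5-fold or more, where 9.66% of 19544 genes were lower, and 1 was higher, where 8.94% were higher. The spread of KD1 minus KD2 over 17054 genes detected on all arrays was 0.38 (robust SD, log2), which mixes biological and technical differences. No member was called lower in 1 knockdown and higher in the other.

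**Figure D1:**
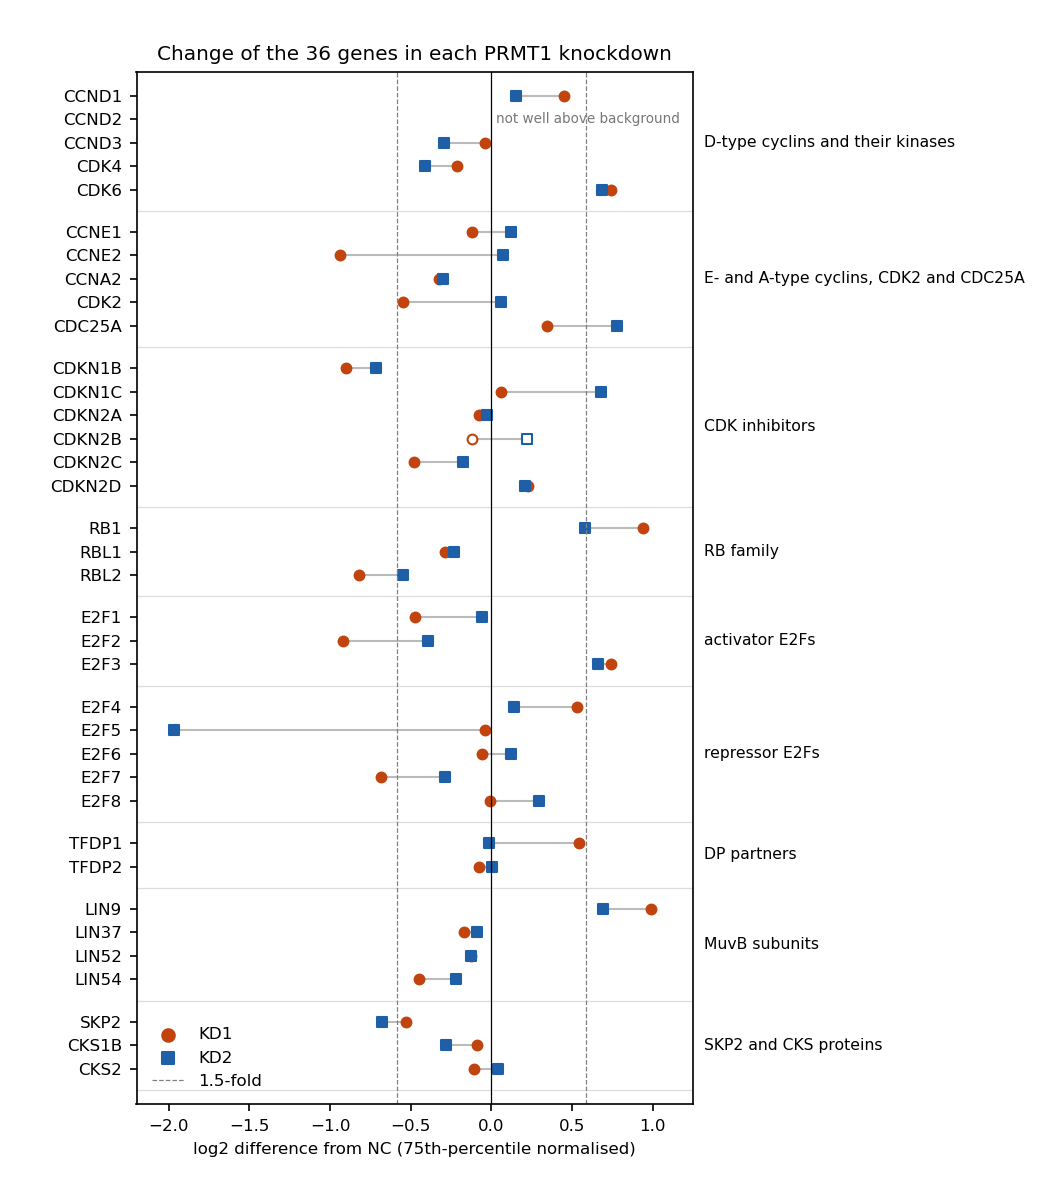
The log2 difference from NC of the 35 counted genes, in KD1 (circles) and KD2 (squares), grouped by role, with dashed lines at 1.5-fold. CCND2 is listed without a point, and the open symbols of CDKN2B are set against the lowest detectable signal in NC. Most points lie between the lines, CDK6, E2F3 and LIN9 lie to the right of them in both knockdowns, CDKN1B lies to the left in both, and E2F5 lies at -1.97 in KD2 alone.

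Among the D-type cyclins and their kinases, CDK6 was the gene past 1.5-fold. Since RNA of whole cultures was measured, a change in the share of cells at the G1/S boundary and a change of RNA per cell cannot be told apart here or below. CDK6 had levels of 4.47 in NC, 5.21 in KD1 and 5.16 in KD2. It was higher in both knockdowns, at 167% and 161% of NC, and 91.8% of all genes counted in KD1 had a lower change. CDK4, the other kinase that pairs with the D-type cyclins, went the other way within 1.5-fold, with levels of 6.88, 6.67 and 6.47 in NC, KD1 and KD2. CCND1, the growth-factor-responsive cyclin, had levels of 3.47, 3.92 and 3.62, or 137% and 111% of NC. CCND3 differed from NC by -0.04 in KD1 and -0.29 in KD2.

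In the cyclin E-CDK2 group, CCNE2 and CDK2 were lower in KD1 than in KD2. CCNE2, a cyclin that peaks at the G1/S boundary, had levels of 0.81 in NC, -0.13 in KD1 and 0.88 in KD2. Only KD1 was low, at 52.1% of NC, and KD1 differed from KD2 by -1.01. CDK2, the kinase of cyclin E and cyclin A, followed a like course with levels of 0.92, 0.37 and 0.98. In KD1 its signal was 68.3% of NC, just short of 1.5-fold, and KD1 differed from KD2 by -0.61. CCNE1, the other E-type cyclin, differed from NC by -0.12 and 0.12.

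CDC25A, the phosphatase that removes the inhibitory phosphates from CDK2, had levels of 2.28 in NC, 2.63 in KD1 and 3.06 in KD2. It was highest in KD2, where it reached 171% of NC, and lay within 1.5-fold in KD1 at 127%. CCNA2, the S-phase cyclin, was lower than NC by less than 1.5-fold in both knockdowns, with differences of -0.32 and -0.30.

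Of the CDK inhibitors, CDKN1B was low in both knockdowns. CDKN1B binds and holds cyclin E-CDK2, and its levels were 2.65 in NC, 1.75 in KD1 and 1.94 in KD2. These were 53.6% and 60.9% of NC, but the gene's other probe did not share the KD1 change, as given below. CDKN1C, of the same Cip/Kip family, had levels of 3.91, 3.97 and 4.59. Here KD2 alone was high, at 160% of NC, and KD1 differed from KD2 by -0.62.

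Of the INK4 inhibitors, which act on CDK4 and CDK6, CDKN2A, CDKN2C and CDKN2D lay within 1.5-fold of NC. CDKN2A, whose locus also encodes the p53-stabilising ARF protein, had levels of 6.70, 6.62 and 6.67 in NC, KD1 and KD2, nearly level across the arrays. CDKN2C differed from NC by -0.48 and -0.18, and CDKN2D by 0.23 and 0.21. CDKN2B was not well above background in NC, where it read -3.33, and read -2.81 in KD1 and -2.47 in KD2. Against the lowest detectable signal in NC, KD2 was at least 1.17-fold higher, and no fold can be given for KD1. Without that floor its KD2 difference was 0.86.

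The pocket proteins did not move together. RB1, the retinoblastoma tumour suppressor, had levels of 2.29 in NC, 3.22 in KD1 and 2.87 in KD2. Both knockdowns were higher than NC, at 192% in KD1 and 149.7% in KD2, the latter just under 1.5-fold. RBL2, the pocket protein of the DREAM complex, had levels of 0.38, -0.44 and -0.17. It was lower in both, at 56.6% of NC in KD1 and 68.3% in KD2, and KD2 fell short of 1.5-fold. RBL1, the pocket protein that is most abundant in dividing cells, differed from NC by -0.29 and -0.23.

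The probes of RB1, CCND1, CCNA2 and E2F1 were spotted 10 times per array, which gives the measurement error within an array. For RB1, 9 usable spots in NC ranged from 2.25 to 2.36, 10 spots in KD1 from 3.14 to 3.31, and 8 spots in KD2 from 2.83 to 2.91. No spot of either knockdown reached the range of NC. The spots of CCND1 and CCNA2 likewise did not overlap with NC in either knockdown, although these changes were under 1.5-fold. Over all repeatedly spotted probes the median spot SD was 0.044 in NC, 0.049 in KD1 and 0.038 in KD2. These lie far below the spread of 0.38 between genes given above. The share of all such probes without overlap was not counted, so non-overlap does not set these genes apart. Over the 4 probes and 3 arrays the SD of the spots was 0.015 to 0.099 on the log2 scale. This error covers spotting and scanning of 1 labelled RNA, and says nothing of how cultures of 1 group would vary.

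**Figure D2:**
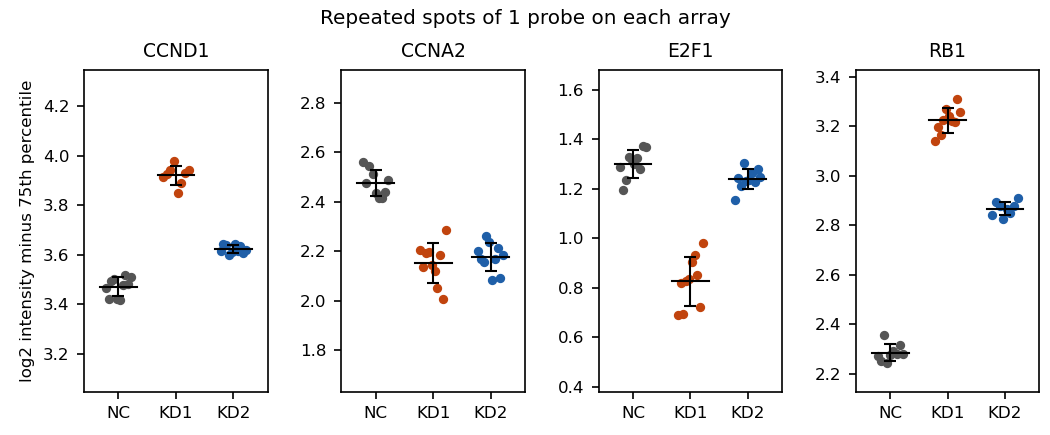
Each point is a usable spot of the probe for CCND1, CCNA2, E2F1 or RB1, plotted as log2 intensity minus the array's 75th percentile for NC, KD1 and KD2, with the mean and SD of the spots (8 to 10 per array) and panels of equal height. Spots of NC and the knockdowns do not overlap, except for E2F1 in KD2, whose mean of 1.24 lies beside 1.30 in NC.

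The activator E2Fs, which drive S-phase genes, differed among themselves. E2F1 had levels of 1.30 in NC, 0.83 in KD1 and 1.24 in KD2. KD1 was at 71.9% of NC with no overlap of its 10 spots, whereas KD2 was at 95.9% and its spots overlapped with NC. E2F2 had levels of 5.22, 4.30 and 4.83, low in KD1 at 53.0% of NC and less so in KD2 at 76.2%. E2F3 had levels of 2.85, 3.60 and 3.52, higher in both knockdowns at 167% and 158% of NC. A second probe of E2F3 did not share this change.

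Of the repressor E2Fs, E2F5 in KD2 gave the change furthest from 0 by the brightest probes. E2F5 acts with the pocket proteins as E2F4 does, and its levels were -0.07 in NC, -0.11 in KD1 and -2.04 in KD2. NC and KD1 were alike and KD2 alone was low, at 25.5% of NC, with 0.40% of all genes counted in KD2 having a lower change. With normexp background correction E2F5 in KD2 differed from NC by -0.91, or 53.3% of NC, and RB1 in KD1 then lay further from 0, at 0.96. In the main values KD1 was 3.82-fold above KD2. The gene has 1 probe and 1 spot on the array, so no second measurement of it was at hand. E2F4 differed from NC by 0.53 and 0.14.

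E2F7, an atypical E2F that binds DNA without a DP partner, had levels of 5.11, 4.43 and 4.83. It was lower in KD1, at 62.2% of NC, and within 1.5-fold in KD2. E2F8, the other atypical member, differed from NC by -0.01 and 0.30. E2F6, which represses without a pocket protein, differed by -0.06 and 0.12, while its 5′-most probe gave -0.72 and -0.01. TFDP2, a DP partner, differed by -0.08 and 0.00, and TFDP1 by 0.54 and -0.02.

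Among the MuvB subunits, LIN9, the scaffold through which MuvB also meets B-MYB, stood alone. LIN9 had levels of 1.09 in NC, 2.07 in KD1 and 1.78 in KD2. Both knockdowns were higher by this probe, at 198% and 162% of NC. The gene's other probe did not share the change, and the mean of both probes gave 0.44 and 0.43, within 1.5-fold. LIN37, LIN52 and the DNA-binding subunit LIN54 all lay below NC by less than 1.5-fold, with differences from -0.45 to -0.13 in KD1 and from -0.22 to -0.09 in KD2. RBBP4, the fifth subunit and not a member of the set, had levels of 4.92, 5.00 and 5.13.

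SKP2, which targets CDKN1B for degradation, had levels of 1.00 in NC, 0.47 in KD1 and 0.32 in KD2. It was lower in both arrays, at 69.2% and 62.5% of NC, and passed 1.5-fold in KD2 alone. Its cofactor CKS1B differed from NC by -0.09 and -0.28, and CKS2 by -0.11 and 0.04. In all, 21 members lay within 1.5-fold in all 3 comparisons, CDKN2B by its floored values, and their differences from NC ran from -0.48 to 0.54.

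For 10 members the array carried more than 1 probe, and these often disagreed. Of their 21 probes, 6 were lower than NC by 1.5-fold or more in KD1 and 2 were higher, while in KD2 2 were lower and 2 higher. By brightest probes, 14.0% of all genes were lower and 12.4% higher in KD1, and 10.6% and 9.68% in KD2. Shares over every probe of the array were not computed, so the probe counts are no result about these genes. Probes of both signs were found for 8 of the 10 genes in KD1 and for 6 in KD2, but no gene had probes past 1.5-fold on opposite sides. How often the signs differ among other genes with several probes was not counted. The 5′-most probes of CDKN1B, E2F3, TFDP1 and LIN9 are printed because the reading of these genes depends on them. They lie at chr12:12871119-12871178, chr6:20490602-20490661 and chr13:114290388-114290852 on the plus strand and at chr1:226453300-226453937 on the minus strand (build hg19). Each probe holds 60 bases, and those of TFDP1 and LIN9 span 465 and 638 bases of the genome, so they cross an exon junction.
CDKN1B: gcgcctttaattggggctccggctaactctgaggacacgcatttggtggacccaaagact
E2F3: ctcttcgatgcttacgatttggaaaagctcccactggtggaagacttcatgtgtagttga
TFDP1: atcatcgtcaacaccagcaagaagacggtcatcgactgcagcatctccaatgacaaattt
LIN9: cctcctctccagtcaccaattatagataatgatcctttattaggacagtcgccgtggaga

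For CDKN1B the printed probe is the brightest and gave the differences of -0.90 and -0.71, while the probe 3821 bases downstream gave 0.10 in KD1 and -0.49 in KD2. The lower KD1 signal was thus seen by the 5′ probe alone. For E2F3 the printed probe gave -0.36 and -0.13, against 0.74 and 0.66 for the brightest probe 3243 bases further 3′. The higher level of E2F3 therefore rests on the 3′ probe. For LIN9 the printed probe gave -0.11 and 0.16, against 0.99 and 0.69 at the 3′ end.

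TFDP1 showed the widest gap in KD1, with -0.85 and -0.76 for the printed probe and 0.54 and -0.02 for the brightest probe. By the 5′ probe TFDP1 was lower in both knockdowns, and by the 3′ probe it was within 1.5-fold in both. CCNE2 was lower in KD1 by both probes, at -1.78 for the 5′ probe and -0.94 for the brightest. In KD2 its probes gave -0.36 and 0.07. E2F7 showed the reverse order, with -0.05 and 0.34 for the 5′ probe against -0.68 and -0.29 for the brightest.

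Across the 10 genes, the change of the 3′-most probe minus that of the 5′-most had a median of 0.75 in KD1 and 0.18 in KD2 on the log2 scale. It was above 0 for 6 of 10 genes in each. Over 3830 genes of the array, the median was 0.14 in KD1 and 0.03 in KD2, with 61.9% and 53.9% of genes above 0. These were the genes with several probes well above background on every array, mapped to the same strand at different starts. The 2 ends differed by 1.5-fold or more in 7 of the 10 members in KD1, against 29.1% of all such genes, and in 3 of 10 in KD2, against 15.0%. In 7 of the 10 genes the 3′ probe was lower in GC content than the 5′ probe, and in both knockdowns its change lay above that of the 5′ probe in 6 of them and below it in CDKN2A. In the other 3 genes (CKS1B, E2F7 and RBL1) the 3′ probe was higher in GC content and its change lay below in both knockdowns. What part the position, the composition or the transcript measured had in these differences was not tested.

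**Figure D3:**
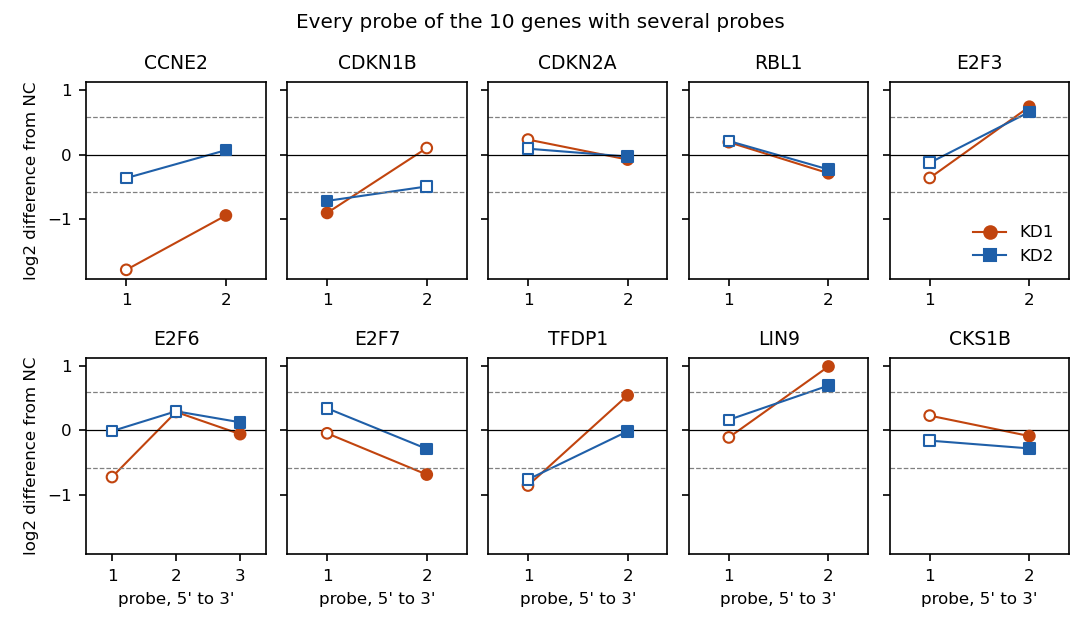
The log2 difference from NC of every probe of the 10 genes with several probes, ordered from the 5′ to the 3′ end, in KD1 (circles) and KD2 (squares), with filled symbols for the brightest probe and dashed lines at 1.5-fold. In CCNE2, CDKN1B, E2F3, TFDP1 and LIN9 the 3′ probe lies above the 5′ probe in both knockdowns, and in E2F7 and RBL1 below it.

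The calls also depended on how the arrays were scaled. With the 8 spike-in probes as reference, the median of all genes in KD1 shifted by 0.65 and that in KD2 by 0.29. Under this scaling no member was lower and 14 of 35 were higher in KD1, where 1.88% of all genes were lower and 49.5% higher. In KD2, 1 was lower and 7 were higher, against 3.62% and 22.6% of all genes. With the deposited values unscaled, 0 were lower and 9 higher in KD1, against 3.58% and 32.5%, and 2 were lower and 6 higher in KD2, against 7.41% and 13.4%. With each array's median as reference, the split was 4 lower and 6 higher in KD1, against 9.61% and 16.5%, and 4 lower and 1 higher in KD2, against 18.1% and 6.05%. The members' split thus moved with that of all genes. CDK6 and RB1 in KD1, and CDC25A (higher) and E2F5 (lower) in KD2, kept their 1.5-fold call under all 12 settings, the main one included. Each of these genes has 1 probe and was detected on all arrays, so probe averaging and the detection filters could not change its value. In KD1, CDKN1B kept its call in 9 settings and E2F7 in 7. Both have 2 probes and lost the call when probes were averaged.

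Genes downstream of the switch were set beside the members, in lists chosen with earlier results of these data known. Of 32 E2F targets of G1/S, 4 were lower and 3 higher than NC in KD1, and 3 were lower and 1 higher in KD2, with medians of -0.21 and -0.27. Over all genes the medians were -0.07 and -0.05. The shares called in KD1, 12.5% lower and 9.38% higher, lay near the 14.0% and 12.4% of all genes. In KD2, 9.38% were lower, near the 10.6% of all genes, and 3.1% were higher, below the 9.68% of all genes. MCM5, a subunit of the replicative helicase, had levels of 5.95 in NC, 4.61 in KD1 and 4.83 in KD2, and CDT1, which loads that helicase, 7.12, 6.04 and 6.51. Both were lower in both knockdowns. MCM5 has 2 probes on the array, and only the brightest is given here. RRM2, a subunit of ribonucleotide reductase, was higher in both, by 1.07 and 1.00. Spike-in scaling raises the changes of this list by the shifts given above, which brings those of MCM5 and CDT1 nearer to NC.

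The 20 late cell cycle targets, which DREAM represses in resting cells and B-MYB with FOXM1 activates in G2, were more one-sided. As this list was chosen with earlier results of these data known, its shares are a description and were not tested. In KD1, 6 were lower (30%) and 0 higher, where 14.0% of all genes were lower and 12.4% higher. In KD2, 7 were lower (35%) and 0 higher, against 10.6% and 9.68% of all genes. The medians were -0.25 and -0.40 beside -0.07 and -0.05 over all genes. The mitotic kinase TTK differed from NC by -1.33 and -0.90, and the kinase PLK1 by -0.82 and -0.79. CCNB1, the mitotic cyclin B, had levels of 6.31 in NC, 5.61 in KD1 and 5.31 in KD2. PLK1 and CCNB1 have 2 probes each, and only the brightest is given. All 20 lay below NC in KD2 and 16 of 20 in KD1. Spike-in scaling adds the shift given above to each of these changes, which turns the KD1 median above 0.

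Of 23 counted partners and regulators of the switch, none was lower and 8 were higher (34.8%) in KD1, where 14.0% of all genes were lower and 12.4% higher. In KD2 none was lower, against 10.6% of all genes, and 2 were higher (8.70%), near the 9.68% of all genes. The medians were 0.33 and 0.25 beside -0.07 and -0.05 over all genes. This list too was chosen with earlier results of these data known, and its shares were not tested. Spike-in scaling raises these changes by the shifts given above. CCNA1 was not well above background and CDC25B was not analysed here. WEE1, the kinase that inhibits CDK1 and CDK2, had levels of 1.53, 2.20 and 2.44 in NC, KD1 and KD2. MYC, a growth-driving transcription factor that induces CCND2, CDK4 and CUL1, had levels of 6.20, 7.08 and 6.95. Both were higher in both knockdowns, MYC by the brightest of its 2 probes. CDKN1A, the Cip/Kip inhibitor induced by p53, had levels of 3.53, 3.65 and 3.54, nearly the same on all arrays.

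**Figure D4:**
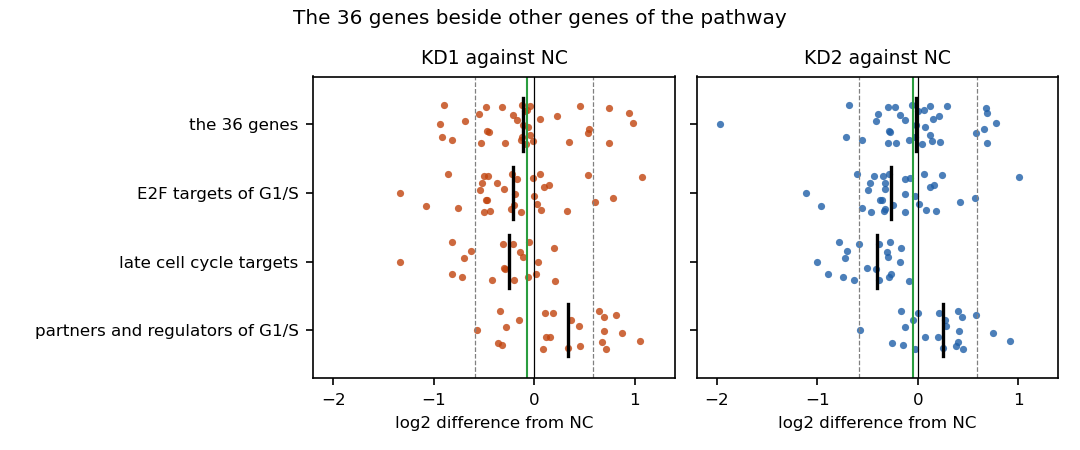
The log2 difference from NC of each counted gene, in KD1 and KD2, for the 36 genes (35 counted), the 32 E2F targets, the 20 late cell cycle targets and the 23 counted partners and regulators, with a black bar at each list's median, a green line at the median of all genes and dashed lines at 1.5-fold. The late cell cycle targets lie mostly to the left of 0 and the partners and regulators mostly to the right, while the 36 genes spread to both sides.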

How the data were processed

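Total RNA from HCT116 cells was converted to Cy3-labelled cRNA and hybridised to 60-base Agilent arrays, 1 per group, all on 1 slide read in 1 scan. The authors deposited scanner output, in which Agilent Feature Extraction 10.7.1.1 (submitters' processing notes) gave each spot a background-corrected intensity, not scaled between arrays. The deposited series matrix held the same intensity averaged per probe, also unscaled (medians 7.91, 9.74 and 9.43 for NC, KD1 and KD2), and served as an alternative.

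Control spots and spots marked non-uniform or as population outliers were left out, which removed 130 probes and kept 58071. Spots of a probe were averaged as log2 intensity, and each array's 75th percentile was subtracted. The brightest probe of a gene, by its mean of the 3 arrays, stood for that gene, which entered a comparison if at least 1 of the arrays compared had it well above background. Elsewhere it took the higher of its own value and the lowest signal well above background. The threshold was 1.5-fold. The p-value of the study's methods needs replicate arrays. Probe positions are those of the files (hg19), and promoters come from RefSeq (GRCh38.p14). Counting was tested on simulated data.

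Per-array values were given for members past 1.5-fold in any comparison and for CCND1, CDK4, CDKN1B, CDKN2A, RB1 and E2F1, and outside the set for at most 3 genes per list and direction past 1.5-fold in both knockdowns, plus CDKN1A and RBBP4. The members, lists, naming rule and spike-in alternative were chosen with earlier results of these data known. Python 3.11.15, pandas 2.3.3, numpy 2.4.6, matplotlib 3.10.9 and R 4.3.3 with limma 3.58.1 (normexp, offset 50) were used. The study's SMARCA4 knockdowns were not analysed here.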

Additional observations from a re-analysis of the deposited data

How the results depend on the processing

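No paired analysis was possible because each group had 1 array, and for the same reason no replicate could be left out. Of the settings tried, spike-in scaling gave 0 lower and 14 higher members in KD1 (median 0.54), 1 lower in KD2 and 8 past 1.5-fold between KD1 and KD2. The unscaled series matrix gave 0 lower and 9 higher in KD1 (median 0.31) and 7 between the knockdowns. With spike-in scaling, 3.09% of all genes were lower in KD1 than in KD2 and 27.8% higher, and in the matrix 3.46% and 24.7%. Normexp background correction gave 3 lower and 6 higher in KD1, turning the balance of 5 and 4. The split of all genes turned the same way, to 4.99% lower and 8.64% higher. In KD2 it gave 2 lower, against 5.01% of all genes. Median scaling gave 6 higher in KD1 and 1 higher in KD2, and the series matrix 2 lower in KD2. Averaging a gene's probes left 3 lower and 2 higher in KD1, against 13.2% and 11.5% of all genes, and 3 higher in KD2, against 9.39%. At 2-fold, 0 were lower and 0 higher in KD1, 1 was lower and 0 higher in KD2, and 2 remained between the knockdowns. The shares of all genes at 2-fold were not computed. The other counts moved by less than 1.5 times. The other medians moved by less than 0.38, a spread of single genes that does not measure how a median of 35 genes varies. In KD2 the median ran from -0.17 with median scaling to 0.28 with spike-in scaling, beside -0.02 in the main values. In KD1 it was 0.01 with median scaling, beside -0.11. Among single changes past 1.5-fold, the sign reversed only with another probe. These were CDKN1B in KD1 (0.10), E2F3 in KD1 (-0.36) and KD2 (-0.13), and LIN9 in KD1 (-0.11). Smaller changes also turned sign with scaling or probe averaging. With spike-in scaling, CDK2 in KD1 went from -0.55 to 0.10 and E2F1 in KD1 from -0.48 to 0.17. With probes averaged, TFDP1 in KD1 went from 0.54 to -0.16. With each change taken relative to probes similar in GC share and signal, CDKN2C (-0.76) and LIN54 (-0.71) in KD1 and RBL2 in KD2 (-0.65) were also lower and E2F4 in KD1 (0.84) was higher, while E2F3 in KD1 (0.56) and CDKN1B in KD2 (-0.51) were no longer past 1.5-fold. The cause of these shifts was not tested. The number of arrays limits the precision, and the spot SDs cover measurement within an array only.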
